A study of Homo sapiens with 8 samples.

Results

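Transcripts of glucose breakdown and of the response to low oxygen were followed in MOLM13 cells, a long-established line from a human acute myeloid leukemia, after IGF2BP2 was depleted and given back. The set holds 37 genes chosen by symbol, from the glucose transporters through the glycolytic enzymes to genes induced by hypoxia, out of 35370 rows in the deposited table. All 37 have a row, and 36 passed the filter on low values. The exception was EGLN3, a prolyl hydroxylase gene, whose log2 value lay between 0.79 and 0.87 in the 8 libraries. Polyadenylated RNA was sequenced in 4 groups of 2 libraries each. They were rescue cells (labelled IGF2BP2 rescue), mutant rescue cells (labelled IGF2PB2-mut rescue, with letters transposed), knockdown cells (labelled IGF2BP2 knockdown, with shIGF2PB2 in the title) and control cells (labelled WT). Cells were infected with virus and given puromycin where selection was needed. The labels do not name the hairpin, the mutation or the vector, do not say whether control cells carried an empty virus, and do not say that replicates were separate cultures. The p-values therefore measure the spread between libraries, which may be technical.

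Glycolysis turns glucose into pyruvate in a chain of cytosolic enzymes that starts at the plasma membrane with a transporter and is primed by hexokinase. Phosphofructokinase is its main control point, and lactate dehydrogenase or pyruvate dehydrogenase decides what becomes of the pyruvate. HIF1A encodes the oxygen-regulated subunit of a transcription factor that prolyl hydroxylases mark for destruction when oxygen is present, and many glycolytic genes are among its known targets. Leukemia cells are known for high glycolytic activity. IGF2BP2 encodes a protein that binds N6-methyladenosine in RNA and is known to stabilise bound transcripts.

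The labels were checked first against the targeted transcript. IGF2BP2 had log2 values of 11.36 and 11.13 in rescue, 11.03 and 10.68 in mutant rescue, 10.24 and 10.25 in knockdown and 10.94 and 10.89 in control. Both knockdown libraries were the lowest, 0.67 below control on the log2 scale (a change of -0.67, SE 0.13, limma adjusted p = 0.0147). That call was lost when either knockdown library (adjusted p = 0.119 and 0.123) or either control library (0.0662 and 0.0754) was left out. Among 6 marker genes of the myeloid leukemia label, all were above the filter. All members of short T cell, B cell, erythroid and fibroblast lists were below it, with sums of at most 1.76 ppm of a library's summed linear values and 1 T cell, 1 B cell and 1 erythroid gene at 0. Other genes moved with the groups. The summed level of 10 monocyte markers was 8400 to 9660 ppm in rescue, 17100 to 24800 ppm in mutant rescue, 11600 to 12000 ppm in knockdown and 3210 to 3830 ppm in control, with none of the 10 at 0. LYZ alone made up most of that sum, and the other 9 markers together were at 1380 to 1400 ppm in rescue, 1630 to 1640 ppm in mutant rescue, 1430 to 1440 ppm in knockdown and 846 to 937 ppm in control. By the limma call defined below, 6 of the 10 were higher in knockdown over control (against 5.35% of all genes). In mutant rescue over control 8 were higher (against 13.9%), and in rescue over mutant rescue 5 were lower (against 4.61%). Single markers did not all follow the sum, S100A8 and S100A9 having their lowest mean in rescue and MNDA its highest. The summed level of 10 interferon-stimulated genes was 6840 to 7860 ppm, 1640 to 1700 ppm, 153 to 155 ppm and 98.9 to 101 ppm in the same order. Of these, 4 were called higher in knockdown over control, and all 10 in each rescue group over control. The part of either shift in the results below was not tested.

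Knockdown against control asked which members differed where the IGF2BP2 transcript was partly depleted, to 0.63 of its control level on the deposited scale. A transcript was called at a Benjamini-Hochberg adjusted p under 0.05 in limma, over all 13030 genes tested. In knockdown cells 6 of 36 members were lower (16.7%, against 7.44% of all genes) and 3 were higher (8.33%, against 5.35% of all genes). The members that fell were the glucose transporter gene SLC2A1, the enzyme genes PFKP, ALDOA, ENO1 and LDHA, and the collagen prolyl hydroxylase gene P4HA1. Those that rose were the hexokinase genes HK2 and HK3 and the mitophagy receptor gene BNIP3L. The direction was thus mixed, and the median log2 change of the members was 0.02 against 0.01 over all genes. In bulk RNA a change in the share of cells that hold a transcript and a change in its amount per cell cannot be told apart.

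P4HA1 encodes the catalytic subunit of collagen prolyl 4-hydroxylase and is a known hypoxia target (chromosome 10, 73007217 to 73096974, minus strand, GRCh38). It had log2 values of 9.38 and 9.24 in rescue, 9.25 and 8.98 in mutant rescue, 9.02 and 8.93 in knockdown and 10.01 and 9.95 in control. Both control libraries lay above the other 6. P4HA1 was 2.00-fold lower in knockdown than in control, a log2 change of -1.003 (SE 0.12, adjusted p = 0.00203), and it was called in all 8 fits that left out 1 library (adjusted p between 0.000991 and 0.0406). It was the member with the largest change in this comparison. P4HA2, which encodes the alternative catalytic subunit, had a change of 0.13 that did not pass (adjusted p = 0.344).

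LDHA, which encodes the lactate dehydrogenase subunit that favours lactate formation (chromosome 11, 18394388 to 18408425, plus strand), had log2 values of 13.46 and 13.31 in rescue, 13.29 and 13.13 in mutant rescue, 13.12 and 13.11 in knockdown and 13.71 and 13.84 in control. Control was again above the 6 other libraries, and both knockdown libraries were the lowest by a narrow margin. LDHA was 1.58-fold lower in knockdown (log2 change -0.66, SE 0.10, adjusted p = 0.00706). The heart-type subunit gene LDHB had a change of -0.32 (adjusted p = 0.0723), and the pyruvate dehydrogenase kinase genes PDK1 and PDK3 had changes of -0.17 and -0.30 (adjusted p = 0.518 and 0.344). All 4 genes of pyruvate fate thus had a negative change, and 1 of them passed.

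Uptake and the upper enzymes gave 3 of the lower calls. SLC2A1, which encodes the basal glucose transporter GLUT1, had log2 values of 9.09 and 9.06 in rescue, 8.84 and 8.76 in mutant rescue, 8.60 and 8.49 in knockdown and 8.998 and 8.94 in control. Knockdown was lowest and did not overlap with any other group. Its log2 change was -0.42 (SE 0.10, adjusted p = 0.0314). ALDOA, which encodes the aldolase that splits fructose bisphosphate, had log2 values of 12.04 and 12.14 in rescue, 12.24 and 12.36 in mutant rescue, 12.01 and 11.90 in knockdown and 12.43 and 12.65 in control. It was lower in knockdown (log2 change -0.58, SE 0.11, adjusted p = 0.0120). Its control libraries were the highest of the 8, and its knockdown libraries the lowest by a narrow margin. PFKP, the platelet-type phosphofructokinase gene, had log2 values of 11.13 and 10.98 in rescue, 10.82 and 10.86 in mutant rescue, 10.49 and 10.49 in knockdown and 10.89 and 10.80 in control. For PFKP as for SLC2A1, knockdown was apart from and below all other groups, with a log2 change of -0.36 (SE 0.09, adjusted p = 0.0382), a call lost with no filter on low values (0.0656) and under quantile normalization (0.0676). The liver-type and muscle-type genes PFKL and PFKM had changes of -0.22 and 0.12 (adjusted p = 0.197 and 0.594).

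In lower glycolysis 1 of 6 members fell, against 2 of 7 in upper glycolysis, and a difference between them was not tested. ENO1, which encodes the enolase common to most tissues, had log2 values of 14.85 and 14.86 in rescue, 14.93 and 14.90 in mutant rescue, 14.66 and 14.66 in knockdown and 14.95 and 15.15 in control. Knockdown was the lowest group, with a log2 change of -0.39 (SE 0.11, adjusted p = 0.0469). That call was close to the threshold and was lost when libraries were centred to the same median (adjusted p = 0.0810), with the pseudocount (0.0620) and with the replicate block (0.0532). GAPDH, PGK1 and PGAM1 had changes of -0.20, -0.25 and -0.35 that did not pass (adjusted p = 0.345, 0.237 and 0.0602). PKM, which encodes pyruvate kinase, differed by 0.05 (adjusted p = 0.796), and its 8 values spanned 0.30, among the narrowest ranges of the set.

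Hexokinases went the other way. HK2, the inducible hexokinase gene, had log2 values of 9.79 and 9.90 in rescue, 10.12 and 10.06 in mutant rescue, 10.15 and 10.31 in knockdown and 9.66 and 9.25 in control. It was 1.71-fold higher in knockdown (log2 change 0.77, SE 0.14, adjusted p = 0.0115), and both control libraries were below the other 6. HK3, a hexokinase gene known for expression in myeloid cells, had log2 values of 5.99 and 6.05 in rescue, 6.64 and 6.55 in mutant rescue, 6.31 and 6.39 in knockdown and 5.93 and 5.75 in control. Control was lowest and mutant rescue highest, without overlap. HK3 was 1.43-fold higher in knockdown (log2 change 0.51, SE 0.11, adjusted p = 0.0221), a call lost under quantile normalization (adjusted p = 0.0502). HK1, the constitutive gene, had a change of 0.30 that did not pass (adjusted p = 0.272), as had PFKFB3 and PFKFB4 with 0.34 and 0.40 (adjusted p = 0.181 and 0.151), whose products set the level of the phosphofructokinase activator fructose 2,6-bisphosphate.

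Among the hypoxia-response members, BNIP3L had log2 values of 11.30 and 11.26 in rescue, 11.55 and 11.40 in mutant rescue, 11.25 and 11.28 in knockdown and 10.74 and 10.75 in control. The control libraries were below the 6 others. BNIP3L was 1.43-fold higher in knockdown (log2 change 0.52, SE 0.09, adjusted p = 0.00950). BNIP3, the gene of the related mitochondrial receptor, had a change of -0.33 (adjusted p = 0.0598). VEGFA, ADM, ANKRD37, KDM3A, NDRG1 and MXI1 did not pass, with changes between -0.10 for MXI1 and 0.36 for KDM3A. HIF1A itself was at 10.87 and 10.92 in knockdown and 10.82 and 10.87 in control, a difference of 0.05 (SE 0.11, adjusted p = 0.798).

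**Figure D1:**
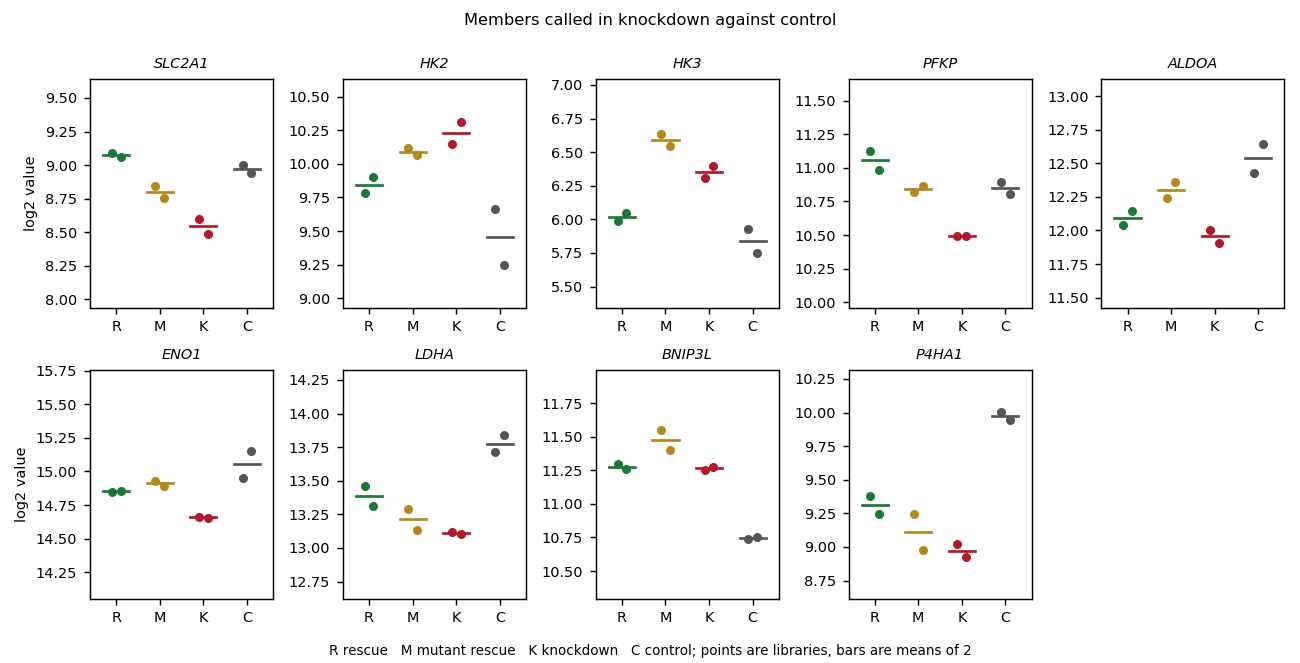
Log2 value (y axis, a window of equal height in each panel that does not start at 0) of the 9 members called in knockdown against control, in rescue, mutant rescue, knockdown and control (x axis); points are libraries and bars are means of 2. P4HA1, LDHA, ALDOA and ENO1 are highest and HK2, HK3 and BNIP3L lowest in control. SLC2A1, PFKP, ENO1 and, by a narrow margin, LDHA and ALDOA are lowest in knockdown.

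The authors' deposited table listed 3 members higher and 11 lower in knockdown, among them all 9 called here. Among the 13030 genes tested here it also called more in this comparison, 2615 against 1667 in limma. That total is not split by direction here, so the 3 and 11 members have no background per direction. All 36 called changes of members over the 6 comparisons were larger in the authors' deposited table than here, by 1.15 times for BNIP3L in knockdown over control up to 2.58 times for PFKFB4 in mutant rescue over control. In knockdown over control the authors' deposited table gave -1.348 for P4HA1, -0.83 for LDHA, -0.74 for ALDOA and 1.25 for HK3. The further 5 were TPI1, PGK1, PGAM1, LDHB and BNIP3, with log2 changes of -0.34, -0.35, -0.45, -0.43 and -0.47 in the authors' deposited table. Most member calls were lost when either knockdown library or control replicate 2 was left out, and calls over all genes fell in these fits too. Without either knockdown library LDHA and BNIP3L missed the threshold (adjusted p between 0.0906 and 0.122). HK2, HK3 and ALDOA also missed it without control replicate 2 (adjusted p = 0.0549, 0.137 and 0.0709). SLC2A1, PFKP and ENO1 further missed it without rescue replicate 1 or rescue replicate 2 (adjusted p between 0.0524 and 0.0819), and SLC2A1 and PFKP without control replicate 1 (0.105 and 0.121).

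The start regions of the 6 members that fell are shown to let the core of the hypoxia response element be read in them. The windows are the 250 bases before the RefSeq start closest to the annotated gene start, on GRCh38.p14. In the windows shown, that RefSeq start lay from 108 bases (P4HA1) to 564 (ENO1) and 1637 (PFKP) from the annotated gene start. The cores ACGTG and GCGTG were searched on both strands, and capitals mark every match. ACGTG is also part of the E-box CACGTG, so a match to that palindrome counts for both.
SLC2A1, chr1:42958869-42959118, minus strand: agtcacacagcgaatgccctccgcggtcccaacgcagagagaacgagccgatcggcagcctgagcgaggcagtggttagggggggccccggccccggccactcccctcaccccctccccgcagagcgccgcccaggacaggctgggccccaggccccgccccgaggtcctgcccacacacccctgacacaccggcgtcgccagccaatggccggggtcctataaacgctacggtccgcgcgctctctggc
PFKP, chr10:3067720-3067969, plus strand: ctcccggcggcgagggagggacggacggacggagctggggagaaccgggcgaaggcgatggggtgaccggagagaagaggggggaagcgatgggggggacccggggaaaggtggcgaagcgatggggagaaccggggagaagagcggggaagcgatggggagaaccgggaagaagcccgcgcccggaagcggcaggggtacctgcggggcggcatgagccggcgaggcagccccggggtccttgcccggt
ALDOA, chr16:30064029-30064278, plus strand: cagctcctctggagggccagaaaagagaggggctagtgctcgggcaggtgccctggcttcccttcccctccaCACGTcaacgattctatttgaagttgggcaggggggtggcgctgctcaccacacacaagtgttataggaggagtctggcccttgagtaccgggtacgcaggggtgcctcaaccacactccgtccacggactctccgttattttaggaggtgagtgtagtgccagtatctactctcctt
ENO1, chr1:8878687-8878936, minus strand: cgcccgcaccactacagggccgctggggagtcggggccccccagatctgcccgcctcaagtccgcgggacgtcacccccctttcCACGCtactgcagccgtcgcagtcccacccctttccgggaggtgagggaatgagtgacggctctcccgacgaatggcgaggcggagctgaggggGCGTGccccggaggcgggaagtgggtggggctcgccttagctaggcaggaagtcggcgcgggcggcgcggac
LDHA, chr11:18394313-18394562, plus strand: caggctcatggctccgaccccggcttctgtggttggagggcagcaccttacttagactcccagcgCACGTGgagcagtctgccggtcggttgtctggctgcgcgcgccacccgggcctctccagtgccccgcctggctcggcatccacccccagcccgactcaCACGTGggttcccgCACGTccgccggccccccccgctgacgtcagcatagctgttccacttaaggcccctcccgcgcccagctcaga
P4HA1, chr10:73096867-73097116, minus strand: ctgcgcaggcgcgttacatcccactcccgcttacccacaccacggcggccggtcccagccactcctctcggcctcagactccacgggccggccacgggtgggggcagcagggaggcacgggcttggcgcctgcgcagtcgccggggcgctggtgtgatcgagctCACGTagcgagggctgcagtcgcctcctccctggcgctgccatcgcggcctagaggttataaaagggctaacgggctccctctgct

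The LDHA window held 2 E-boxes and 1 further ACGTG core, ENO1 held 2 GCGTG cores, and ALDOA and P4HA1 held 1 ACGTG core each. The shown windows of SLC2A1 and PFKP held none of these letters. RefSeq gave 59 windows for 33 of the 37 members. Either core was in 34 of these 59 windows (57.6%), against 43.2% of all 35116 windows. ACGTG was in 22 of the member windows against 6501 of all, GCGTG in 33.9% against 32.2%, and the E-box in 13.6% against 6.3%. Counting a member with a match in any of its windows, 5 of the 6 lower in knockdown held a core, as did 1 of the 2 higher members with a window and 20 of the 24 members not called. Several windows per gene raise such a count, and its share over all genes was not computed. With 1 window per member, 20 of 33 (60.6%) held a core, and a share with 1 window per gene over all genes was not computed. Some of these windows lay far from the annotated gene start, by 511700 bases for EGLN3 and 193509 for PGK1. The members were chosen as glycolysis and hypoxia genes, and what that choice adds to these shares was not tested. A match describes letters only.

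Rescue against knockdown asked which members changed when IGF2BP2 was given back. In rescue cells 3 of 36 members were higher (8.33%, against 3.22% of all genes) and 0 were lower in limma (against 1.02% of all genes). At an unadjusted p under 0.05, 4 members were lower and 7 higher, and the share of all genes at that level was not computed. The authors' deposited table listed 1 member lower, HK2, and 5 higher. Among the 13030 genes tested here it also called more, 1318 against 553 in limma. The members that rose were SLC2A1, PFKP and HIF1A. SLC2A1 was 1.44-fold higher in rescue (log2 change 0.53, SE 0.10, adjusted p = 0.0259) and PFKP 1.48-fold higher (log2 change 0.56, SE 0.09, adjusted p = 0.0113). Both had fallen in knockdown. The 2 comparisons share the knockdown libraries, so the opposite signs are not independent of each other. Against control, rescue differed by 0.11 for SLC2A1 (adjusted p = 0.613) and by 0.21 for PFKP (adjusted p = 0.230).

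HIF1A (chromosome 14, 61695513 to 61748259, plus strand) had log2 values of 11.30 and 11.48 in rescue, 10.84 and 10.60 in mutant rescue, 10.87 and 10.92 in knockdown and 10.82 and 10.87 in control. Both rescue libraries were above the other 6. HIF1A was 1.41-fold higher in rescue than in knockdown (log2 change 0.50, SE 0.11, adjusted p = 0.0439). The call was lost with no filter on low values, with no mean trend, with centred medians and with quantile normalization (adjusted p = 0.0634, 0.0559, 0.0742 and 0.107).

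The other members that fell in knockdown had smaller values in rescue over knockdown. LDHA differed by 0.27 (adjusted p = 0.201), P4HA1 by 0.34 (0.161), ENO1 by 0.19 (0.372) and ALDOA by 0.14 (0.536), none past the test. The members that rose in knockdown had changes of -0.39 for HK2 (adjusted p = 0.178), -0.33 for HK3 (0.148) and 0.01 for BNIP3L (0.958). PGAM1 was just outside the threshold with a change of 0.44 (adjusted p = 0.0514). Its log2 values were 14.33 and 14.23 in rescue, 14.07 and 13.96 in mutant rescue, 13.84 and 13.84 in knockdown and 14.12 and 14.26 in control, with knockdown lowest. The authors' deposited table called PGAM1 (0.52) and also PFKL (0.40) higher and HK2 (-0.49) lower. The median log2 change of the members was -0.06, against 0.0045 over all genes.

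No member was called in rescue over knockdown when either knockdown library or rescue replicate 1 was left out, and only PFKP when rescue replicate 2 was. Across those 4 fits the adjusted p lay between 0.122 and 0.287 for SLC2A1 and between 0.0938 and 0.310 for HIF1A, and in the first 3 it lay between 0.101 and 0.155 for PFKP. HIF1A also missed the threshold without control replicate 1 or control replicate 2 (0.0668 and 0.0670). Over all genes the split of 420 higher and 133 lower was 328 and 210 under quantile normalization.

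Mutant rescue against knockdown asked the same of the mutant. In mutant rescue cells 2 of 36 members were higher (5.56%, against 5.58% of all genes) and 1 was lower (2.78%, against 5.73% of all genes), shares near or under the background. GPI and PFKP rose and PDK1 fell. PDK1, which encodes a kinase that shuts off pyruvate dehydrogenase and is a known hypoxia target (chromosome 2, 172555373 to 172608669, plus strand), had log2 values of 9.88 and 10.23 in rescue, 9.16 and 8.95 in mutant rescue, 9.94 and 9.90 in knockdown and 10.25 and 9.92 in control. Both mutant rescue libraries were below the other 6. PDK1 was 1.83-fold lower in mutant rescue than in knockdown (log2 change -0.87, SE 0.15, adjusted p = 0.0172).

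GPI, which encodes the isomerase between hexokinase and phosphofructokinase (chromosome 19, 34359480 to 34402413, plus strand), had log2 values of 12.67 and 12.82 in rescue, 13.09 and 13.39 in mutant rescue, 12.63 and 12.45 in knockdown and 12.26 and 12.49 in control. Mutant rescue was highest and did not overlap with another group. GPI was 1.62-fold higher in mutant rescue than in knockdown (log2 change 0.70, SE 0.13, adjusted p = 0.0220), and missed the threshold under quantile normalization (0.43, adjusted p = 0.0657) and when the other 4 libraries were left out of the model (0.0608). PFKP was higher by 0.35 (SE 0.09, adjusted p = 0.0456). It was not called by the authors (log2 change 0.41, adjusted p = 0.159, in the authors' deposited table). It was also lost with no filter, with no mean trend, with only the 2 groups, with centred medians and with quantile normalization (adjusted p = 0.0672, 0.0540, 0.0758, 0.0811 and 0.176).

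The P4HA1 and LDHA values of mutant rescue exceeded those of knockdown by 0.14 and 0.10 (adjusted p = 0.434 and 0.536), and SLC2A1 by 0.25 (0.127). The hypoxia targets NDRG1 and VEGFA had changes of 0.56 and 0.44 that did not pass (adjusted p = 0.126 and 0.135). Here 1 library stood out, since NDRG1 was at 8.88 and VEGFA at 6.31 in mutant rescue replicate 2, against 8.08 and 5.70 in mutant rescue replicate 1. P4HA2 had a change of -0.30 just outside the threshold (adjusted p = 0.0502). The median log2 change of the members was 0.13 against 0.05 over all genes, and -0.05 under quantile normalization, so that its sign depended on the scaling.

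Every member call in mutant rescue over knockdown was lost when either knockdown library or mutant rescue replicate 2 was left out. Calls over all genes fell in these fits too, and rose without mutant rescue replicate 1. Over the fits without 1 library the log2 change lay between -0.97 and -0.76 for PDK1, between 0.55 and 0.84 for GPI and between 0.33 and 0.37 for PFKP. PFKP also missed the threshold without rescue replicate 1, rescue replicate 2, control replicate 1 or control replicate 2 (0.0598, 0.0597, 0.0535 and 0.0537). Over all genes the split of 727 higher and 746 lower was 378 and 938 with centred medians and 262 and 455 under quantile normalization.

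**Figure D2:**
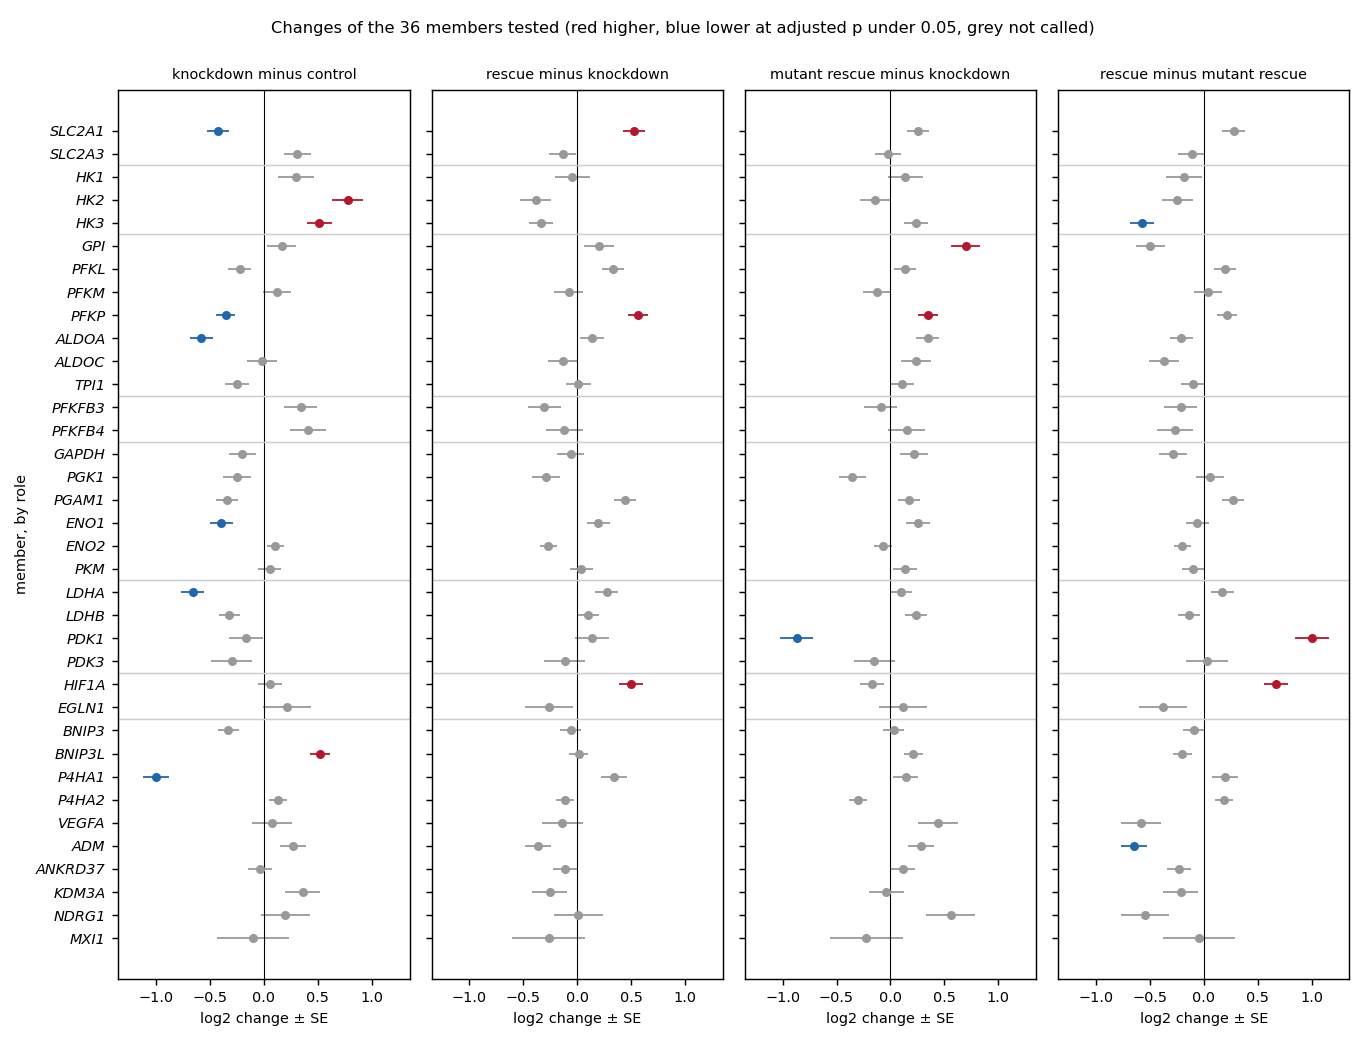
Log2 change with its SE (x axis) of the 36 members tested, ordered by role (y axis, grey lines between uptake, hexokinases, upper glycolysis, PFKFB genes, lower glycolysis, pyruvate fate, oxygen sensing and hypoxia targets), in 4 comparisons; red and blue points passed at an adjusted p under 0.05. Of the 36 points, 9, 3, 3 and 4 passed in the panels from left to right.

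Rescue against mutant rescue sets the cells given IGF2BP2 beside those given the mutant. The arms also differed in IGF2BP2 level, which was higher in both rescue libraries (log2 change 0.39, adjusted p = 0.0839, and 0.57 with adjusted p = 0.0161 without mutant rescue replicate 1), and the part of that difference in the results was not tested. In rescue cells 2 of 36 members were higher (5.56%, against 5.90% of all genes) and 2 were lower (5.56%, against 4.61% of all genes). PDK1 and HIF1A were higher in rescue, and HK3 and the vasoactive peptide gene ADM were lower. PDK1 was 2.01-fold higher in rescue than in mutant rescue (log2 change 1.00, SE 0.15, adjusted p = 0.00744), and its rescue values overlapped with those of knockdown and control. HIF1A was 1.59-fold higher (log2 change 0.67, SE 0.11, adjusted p = 0.00975). ADM had log2 values of 6.46 and 6.38 in rescue, 6.96 and 7.17 in mutant rescue, 6.78 and 6.79 in knockdown and 6.46 and 6.57 in control. Mutant rescue and knockdown were both apart from and above rescue and control. ADM was 1.57-fold lower in rescue than in mutant rescue (log2 change -0.65, SE 0.12, adjusted p = 0.0155), and HK3 1.49-fold lower (log2 change -0.57, SE 0.11, adjusted p = 0.0186).

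For SLC2A1 and PFKP, the rescue arms differed by 0.28 and 0.21 (adjusted p = 0.112 and 0.156), so a difference between these arms was not detected for these genes. GPI had a log2 change of -0.49 (SE 0.13) that missed the threshold (adjusted p = 0.0519) and was called in the authors' deposited table (-0.60). P4HA1 and LDHA differed by 0.20 and 0.17 (adjusted p = 0.279 and 0.288). The median log2 change of the members was -0.13 against -0.02 over all genes.

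In a fit of only these 2 groups no member was called (adjusted p = 0.0514 for PDK1, 0.0803 for HIF1A, 0.104 for ADM and 0.102 for HK3). Without rescue replicate 2 the adjusted p of these genes was 0.0592, 0.0817, 0.101 and 0.0877, and 0 members were called. HK3 was also lost without rescue replicate 1, with a log2 change of -0.54. Calls over all genes fell without either rescue library too, and rose without mutant rescue replicate 1.

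**Figure D3:**
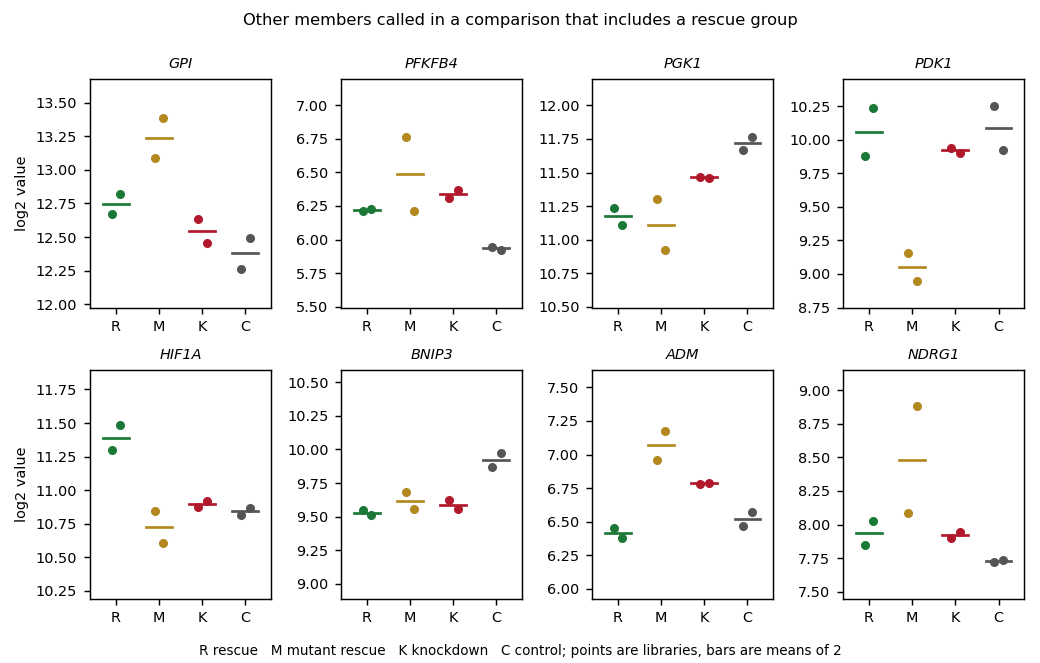
Log2 value (y axis, a window of equal height in each panel that does not start at 0) of the 8 further members called in a comparison that includes a rescue group, in rescue, mutant rescue, knockdown and control (x axis); points are libraries and bars are means of 2. HIF1A is highest in rescue, GPI highest and PDK1 lowest in mutant rescue, and NDRG1 is high in 1 of the 2 mutant rescue libraries.

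Each rescue group was also set against control, to show which members differed from the control level. These comparisons share the 2 control libraries with each other and with knockdown over control, so like signs among them are not independent. In rescue cells 2 of 36 members were higher than in control (5.56%, against 4.91% of all genes) and 4 were lower (11.1%, against 2.27% of all genes). P4HA1 was 1.59-fold lower (log2 change -0.66, SE 0.12, adjusted p = 0.0125) and BNIP3L was 1.45-fold higher (log2 change 0.53, SE 0.09, adjusted p = 0.00927). HIF1A was 1.46-fold higher (adjusted p = 0.0212), and PGK1, ALDOA and BNIP3 were lower (log2 changes of -0.54, -0.44 and -0.39, adjusted p = 0.0408, 0.0442 and 0.0483). PGK1, which encodes the first ATP-yielding enzyme of glycolysis, had log2 values of 11.24 and 11.11 in rescue, 11.30 and 10.92 in mutant rescue, 11.47 and 11.46 in knockdown and 11.67 and 11.77 in control. Control was highest and knockdown lay between control and both rescue groups. BNIP3 had log2 values of 9.55 and 9.51 in rescue, 9.68 and 9.55 in mutant rescue, 9.62 and 9.55 in knockdown and 9.87 and 9.97 in control, with control highest.

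In rescue against control 2 members were called without either knockdown library, without rescue replicate 1 or without control replicate 1, while 1 was called without control replicate 2 and 0 without rescue replicate 2. BNIP3L was lost without either rescue library (adjusted p = 0.0607 and 0.0652), and P4HA1 without rescue replicate 2, control replicate 1 and control replicate 2 (0.105, 0.0768 and 0.0646). HIF1A was lost without all of these but rescue replicate 1 (adjusted p between 0.0606 and 0.163), as were ALDOA without all but control replicate 1 (0.107 to 0.195) and PGK1 and BNIP3 without each (0.0932 to 0.228). With no filter on low values ALDOA, PGK1 and BNIP3 missed the threshold (adjusted p = 0.0519, 0.0536 and 0.0800), and ALDOA and PGK1 did so with no mean trend (0.0534 and 0.0521). ALDOA and BNIP3 also missed it with only the 2 groups (0.0884 and 0.0970) and with centred medians (0.05004 and 0.0566), BNIP3 with the replicate block (0.0560). BNIP3 was not called in the authors' deposited table (adjusted p = 0.0891). Over all genes the split of 640 higher and 296 lower was 590 and 463 under quantile normalization.

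In mutant rescue cells 7 of 36 members were higher than in control (19.4%, against 13.9% of all genes) and 4 were lower (11.1%, against 11.0% of all genes). PDK1 was 2.05-fold lower (log2 change -1.04, SE 0.15, adjusted p = 0.00257), P4HA1 1.82-fold lower, PGK1 1.52-fold lower and LDHA 1.48-fold lower (adjusted p = 0.00182, 0.0118 and 0.00680). The higher members were GPI (1.82-fold), HK3 (1.68-fold), NDRG1 (1.69-fold), BNIP3L (1.66-fold), HK2 (1.55-fold), PFKFB4 (1.47-fold) and ADM (1.46-fold). Their adjusted p was 0.00323, 0.00262, 0.0400, 0.00110, 0.0142, 0.0429 and 0.0135 in that order. PFKFB4 had log2 values of 6.21 and 6.23 in rescue, 6.76 and 6.21 in mutant rescue, 6.31 and 6.37 in knockdown and 5.95 and 5.92 in control. Control was lowest, and mutant rescue replicate 1 was above the rest. NDRG1, a stress-response gene, had 7.85 and 8.03 in rescue, 8.08 and 8.88 in mutant rescue, 7.90 and 7.95 in knockdown and 7.72 and 7.74 in control, again with control lowest and 1 mutant rescue library apart.

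In mutant rescue against control, PDK1, P4HA1, LDHA, GPI, HK3 and BNIP3L were called in all 8 fits that left out 1 library. Without mutant rescue replicate 1 the PFKFB4 change was 0.28 (adjusted p = 0.104), and without mutant rescue replicate 2 the NDRG1 change was 0.36 (0.103). PFKFB4 and NDRG1 also missed the threshold without any 1 library of knockdown, rescue or control (adjusted p between 0.0529 and 0.153) and in a fit of only the 2 groups (0.0878 and 0.0781), PFKFB4 with centred medians (0.0604) and both under quantile normalization (0.0760 and 0.0550). ADM was lost without control replicate 1 (0.0849) and with only the 2 groups (0.0526), and HK2 and PGK1 without control replicate 2 (0.0586 and 0.0640), where 7 members were called. Over all genes the split of 1810 higher and 1431 lower was 1438 and 1891 with centred medians.

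Over the 6 comparisons 17 of the 36 members tested were called at least once and 19 were called in none. The share of all genes called at least once was not computed, so the 17 have no background. In mutant rescue over control alone 13.9% of all genes were called higher and 11.0% lower. Those called in none were SLC2A3, HK1, PFKL, PFKM, ALDOC, TPI1, PFKFB3, GAPDH, PGAM1, ENO2, PKM, LDHB, PDK3, EGLN1, P4HA2, VEGFA, ANKRD37, KDM3A and MXI1. Their log2 changes lay between -0.58 and 0.52, both of them for VEGFA. Replicates differed most for MXI1, a MYC antagonist gene, at 7.82 and 6.76 in rescue, 7.57 and 7.09 in mutant rescue, 7.86 and 7.25 in knockdown and 7.65 and 7.66 in control. The replicates of 3 of the 4 groups were far apart, and those of control were not. The oxygen sensor gene EGLN1 was at 9.11 and 8.63 in rescue, 9.01 and 9.49 in mutant rescue, 9.20 and 9.07 in knockdown and 9.15 and 8.69 in control, so that its groups overlapped. Across the members tested the SD of the difference between replicates was 0.237 in rescue, 0.289 in mutant rescue, 0.159 in knockdown and 0.208 in control.

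**Figure D4:**
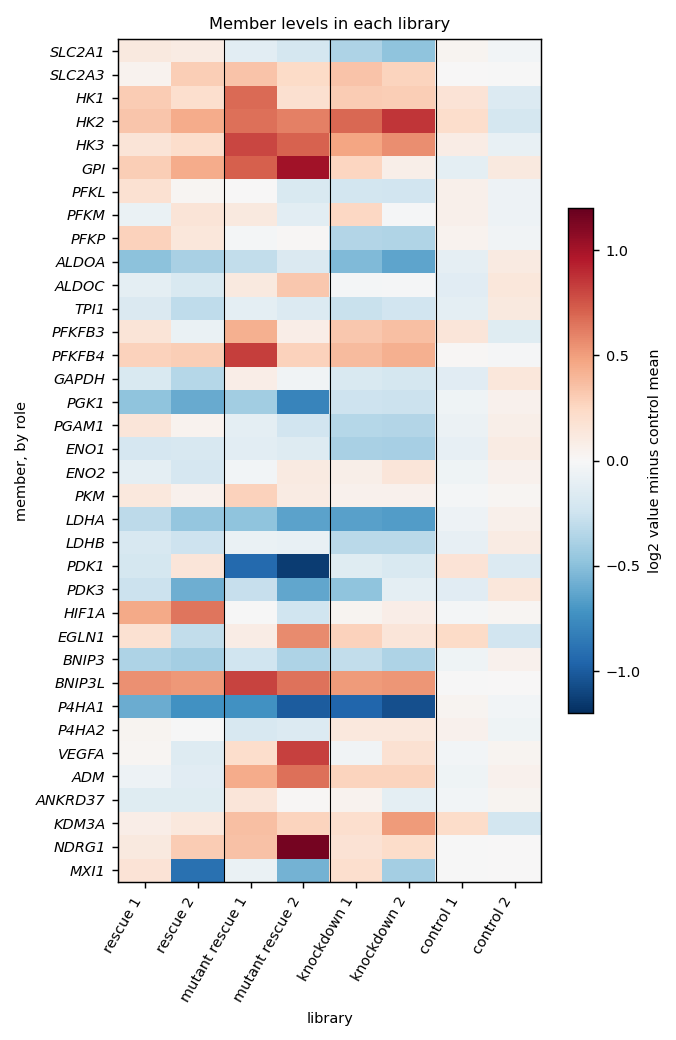
Log2 value minus the mean of the 2 control libraries (colour) of the 36 members tested (rows, by role) in each of the 8 libraries (columns). P4HA1 and LDHA are lower than control in all 6 other libraries, BNIP3L and HK2 are higher in all 6, and PDK1 stands out in the 2 mutant rescue libraries.

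A further list of 44 genes covered oxygen sensing, lactate transport, the pentose phosphate branch and pyruvate oxidation, with other genes such as MYC, BHLHE40 and WSB1. Of the 44, 42 were in the table and 37 were tested. In knockdown against control 2 of 37 rose (5.41%, against 5.35% of all genes) and 1 fell (2.70%, against 7.44%). WSB1 rose by 0.41 (adjusted p = 0.0308), and the lactate transporter gene SLC16A1 fell by 0.53 on the log2 scale (SE 0.11, adjusted p = 0.0178). SLC16A1 had log2 values of 10.51 and 10.61 in rescue, 10.13 and 9.88 in mutant rescue, 10.15 and 10.17 in knockdown and 10.75 and 10.64 in control, with control and rescue above the other 2 groups. Of the 37, all calls were lost without either knockdown library or control replicate 2, and calls over all genes fell in these fits too. Fewer of the 37 were called without control replicate 1, and more without either mutant rescue library.

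In rescue over knockdown 0 of 37 were called in limma (against 3.22% higher and 1.02% lower of all genes). At an unadjusted p under 0.05 there were 7, and the share of all genes at that level was not computed. The authors' deposited table had 2 higher, where it called 1318 of the genes tested here against 553 in limma. In mutant rescue over knockdown 4 rose (10.8%, against 5.58% of all genes) and 0 fell (against 5.73%). Those that rose included the transketolase gene TKT (0.57), MYC (0.65) and FAM162A (0.42), at adjusted p = 0.0208, 0.0290 and 0.0447. In rescue against mutant rescue 2 were higher (5.41%, against 5.90% of all genes) and 5 lower (13.5%, against 4.61%). The lower ones included TKT (-0.55, adjusted p = 0.0185), and the higher ones were SLC16A1 (0.56, adjusted p = 0.0180) and BHLHE40 (0.44, adjusted p = 0.0272). Against control, rescue had 2 higher (5.41%, against 4.91% of all genes) and 0 lower (against 2.27%), among them BHLHE40 (0.47, adjusted p = 0.0254). Mutant rescue had 8 higher (21.6%, against 13.9% of all genes) and 2 lower (5.41%, against 11.0%) than control, including SLC16A1 (-0.69), PGD (0.52) and PDK2 (0.48), at adjusted p = 0.00330, 0.00466 and 0.0127. In a fit of only the 2 groups, 0 of 37 were called in mutant rescue over knockdown and 0 in rescue against mutant rescue.

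Some members share sequence with copies that the counting could split. The annotation names 62 pseudogenes after GAPDH, 39 after BNIP3, 13 after PGAM1, 6 after LDHA, 5 after PKM and 4 each after ENO1 and TPI1, so levels of these genes are uncertain to that extent. Of the 17 members called, 9 have an exon that overlaps a gene on the other strand (ALDOA, BNIP3L, ENO1, HIF1A, HK2, HK3, P4HA1, PDK1 and SLC2A1), and the sources do not say whether counting used strand. A gene on the same strand overlaps an exon of 7 (ALDOA, GPI, HIF1A, PFKFB4, PFKP, PGK1 and SLC2A1). Levels were not compared between genes, since the deposited values are not per length.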

How the data were processed

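The values come from a single table covering every library. Per the file headers the authors made it with HOMER's getDiffExpression.pl on a gene table with 8 libraries in 4 groups, and Trim Galore and kallisto are named beside HOMER and the build GRCh38 in the submitters' processing notes, without their roles. The deposited library columns hold log2 values normalized across the libraries, and values of low genes lie close together. The authors' deposited p-values come from a model not given in the sources used here. No counts are given, so the depth is unknown, no counting error can be stated, and 2 libraries per group limit the precision.

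A gene was tested where 2 or more libraries reached 1 ppm of their summed linear values (13030 genes). limma (version 3.58.1, R 4.3.3) was run on the log2 values as deposited, with no pseudocount, with a mean for each of the 4 groups, a mean trend and 4 residual degrees of freedom. All 6 pairs of groups were compared, and p-values were adjusted by Benjamini-Hochberg over all genes. Tests are two-sided. How the log2 values were transformed is not stated. Fold changes are on that deposited scale and were smaller than the authors' own for every called change of a member. The gap was more than 2 times for the low genes HK3, PFKFB4 and ADM in some comparisons. The procedure was tested on simulated data. The members, gene lists and tests were chosen with earlier results of these data known. Members called in any comparison are named with their values, the others by change or range, and up to 4 called genes of the wider pathway list per comparison. One gene of that list is counted but not reported by name here. In fits without 1 library, the remaining library of that group is assumed to vary like the others. Gene positions are from GENCODE v29 (GRCh38) and start regions from RefSeq (GRCh38.p14).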

Additional observations from a re-analysis of the deposited data

How the results depend on the processing

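The log2 changes of the members called kept their sign under every alternative run. Counts of calls moved more. With only the libraries of the 2 groups fitted, the members called were 5 in rescue over knockdown, 1 in mutant rescue over knockdown and 0 in rescue over mutant rescue, against 3, 3 and 4. All genes called were then 2620 in knockdown over control, 1246 in rescue over knockdown, 279 in mutant rescue over knockdown, 192 in rescue over mutant rescue and 1793 in mutant rescue over control, against 1667, 553, 1473, 1370 and 3241. Genes of the wider pathway list then numbered 10, 2, 0, 0, 1 and 4 in the 6 comparisons (knockdown over control, rescue over knockdown, mutant rescue over knockdown, rescue over mutant rescue, rescue over control, mutant rescue over control), against 3, 0, 4, 7, 2 and 10. The IGF2BP2 change in mutant rescue over knockdown then stayed at 0.61 with adjusted p = 0.0722.

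The authors' deposited adjusted p was counted over the genes tested here only. By it, 14 members, 2615 genes and 10 pathway genes were called in knockdown over control. In rescue over knockdown it gave 6, 1318 and 2, and in rescue over mutant rescue 3 pathway genes. Under quantile normalization, mutant rescue over knockdown had 717 genes and 0 pathway genes called, an IGF2BP2 change of 0.47 (adjusted p = 0.0641) and a member median of -0.0527, and 6 pathway genes were called in knockdown over control. The member median was then -0.0522 in rescue over mutant rescue and -0.0891 in mutant rescue over control. With centred medians or no filter, 4 pathway genes were called in rescue over mutant rescue, and with no filter 3 members in rescue over control. With the minimum at 5 ppm the member median in knockdown over control was -0.0674.

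Without 1 library in turn, members called ranged from 1 to 12, 0 to 4, 0 to 6, 0 to 7, 0 to 7 and 7 to 12 in the order above, all genes called from 179 to 2359, 176 to 864, 79 to 2801, 241 to 2870, 361 to 1422 and 1440 to 3953, and pathway genes called from 0 to 10, 0 to 2, 0 to 8, 0 to 9, 0 to 4 and 3 to 14. The member median ranged from 0.0414 to 0.166 in mutant rescue over knockdown and from -0.165 to -0.0409 in rescue over mutant rescue. The IGF2BP2 change ranged from -0.70 to -0.64 in knockdown over control, from 0.44 to 0.78 in mutant rescue over knockdown and from 0.22 to 0.57 in rescue over mutant rescue. In mutant rescue over control it ranged from -0.23 to 0.11, and was -0.06 with all libraries and 0.11 without mutant rescue replicate 2.

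With the replicate block, the members called were 8, 3, 3, 5, 5 and 13 in the order above, and no count moved by over 1.5 times. The labels do not say that a number marks a shared culture or day. Deviations of same-numbered libraries correlated between -0.021 and 0.414 over pairs of groups.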
